A study of Mus musculus with 16 samples.

Results

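The genes described here mark the layers and areas of the mouse neocortex. The list held 33 genes, and a probe counted as theirs where its platform symbol, updated to the current symbol, was one of the 33. This gave 43 probes for 32 genes, out of 24107 probes and 18501 gene symbols on the array. Of the 43 probes, 33 carried the current symbol and 10 an older one, such as Cutl1 for Cux1 or Cutl2 for Cux2. Plxnd1, a plexin receptor for semaphorins, was not analysed here. In all, 22 genes had 1 probe and 10 had more than 1.

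Neurons of the neocortex settle in layers, and each layer projects to its own targets. Layer 4 of the somatosensory cortex receives the axons of the ventrobasal nucleus of the thalamus (VB), which carry touch from the whiskers. Neurons of the upper layers connect cortical areas, those of layer 5 reach targets below the cortex, and many of those of layer 6 project back to the thalamus. Transcription factors graded across the cortical sheet give each area its identity, and others, made in single layers, set the type of each neuron.

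RNA of staggerer mice, which lack a functional RORα, a nuclear receptor encoded by Rora and made in both tissues, was hybridised against RNA of control mice, both of the C57BL/6 strain, at postnatal days 5 to 6. For each of 4 litters, mutant and control RNA of cortex and of VB were compared on 2 arrays with the Cy3 and Cy5 dyes swapped, which gave 8 arrays in each tissue. The labels give no allele of Rora and no number of mice behind an RNA, and the mutation was in the whole animal. Cortex RNA was labelled through aminoallyl cDNA and VB RNA after PCR amplification, so tissue and labelling method cannot be told apart. The deposited values are ratios of the channels, without intensities. They hold no expression level, so the tissue labels could not be set against defining markers, and signal over background is unknown. In such bulk tissue, fewer cells of a type and less RNA per cell cannot be told apart.

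The ratios were taken as log2, a base that is not stated, and which genotype is the numerator is not stated either. They are therefore called positive or negative, and all signs would turn together if the numerator were the other genotype. A litter's value is the mean of its swapped arrays, and the columns were used as deposited. Rora itself, the mutated gene, had cortex litter values of -0.16, -0.60 and -0.60 in litters 1, 3 and 4, which average to -0.45 ± 0.26 (SD over 3 litters; adjusted p = 0.358 by limma). In VB its mean was -0.13 ± 0.12 (SD, n = 4 litters), with 0.29 on the arrays with staggerer RNA in Cy5 and -0.56 on those with it in Cy3. Where the Rora probe lies relative to the mutation is unknown. Over 18989 cortex probes, 53.3% had opposite signs in the dye orientations, and over 18423 VB probes 67.6%, so the VB genes with an unadjusted p under 0.05 in either reading are given below with the columns as deposited and also read as Cy5 over Cy3. Each array held 17711 to 22580 values.

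In cortex, 26 of the 32 genes had a value in at least 3 litters and were tested. None passed an adjusted p of 0.05 over all 16522 features, of which 10 did (0.0605%). The largest mean ratios were negative for Kcnh5, a potassium channel of layer 4, and for Nr2f1, a regulator of area identity, and positive for Lmo4, another area gene. At an unadjusted p under 0.05 there were 7 of the 26 genes (limma), against 7.9% of all features. Of these, 6 had negative ratios (4.02% of all features), which were Nr2f1, Kcnh5, Pou3f2, Kitl, Cux2 and Cux1, and 1 had a positive ratio (3.87%), Lmo4. The genes were listed with earlier results of these data known, so the share is a description. Over the 26 genes, 10 mean ratios were positive and 16 negative (50.9% of all features were negative), with a median of -0.031 against -0.0032 for all features, and the median SD between litters was 0.266 against 0.208. Ratios were negative in every litter with a value for 6 genes, against 10.5% of features, and positive in every such litter for 2 genes, Lmo4 and Ldb2, against 9.8%. A mean past 0.3 in size was seen for Nr2f1, Kcnh5, Lmo4, Pou3f2, Kitl and Cux2, which are 6 genes against 6.3% of features.

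**Figure D1:**
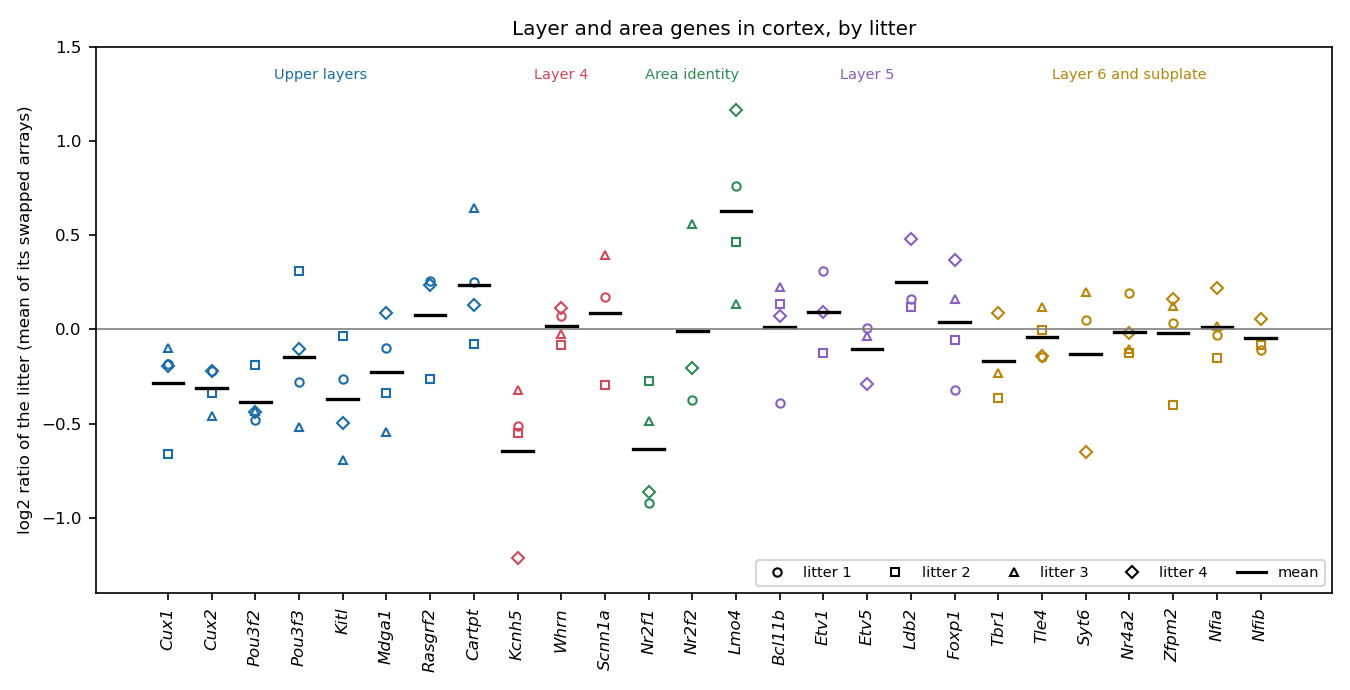
Log2 ratio of each of the 26 tested genes in cortex, ordered by role on the x axis; each symbol is 1 litter and the bar is the mean of the litters. Nr2f1 and Kcnh5 lay below 0 and Lmo4 above 0 in all 4 litters, while most genes of layers 5 and 6 straddled 0.

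Nr2f1 encodes COUP-TFI, an orphan nuclear receptor that promotes the identity of sensory areas. With staggerer RNA in Cy5 its cortex ratios were -1.38, -0.31, -0.62 and -0.94 in litters 1 to 4, and with staggerer RNA in Cy3 they were -0.47, -0.24, -0.35 and -0.79. All 8 arrays were negative. The litter values were -0.92, -0.27, -0.49 and -0.86, with a mean of -0.64 ± 0.31 (SD, n = 4; 0.643-fold; limma unadjusted p = 0.000225, adjusted p = 0.131). Litter 2 was the smallest in size on both of its arrays.

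Kcnh5 encodes a voltage-gated potassium channel of the ether-à-go-go family. Its cortex ratios were -0.68, -0.27, -0.47 and -1.43 with staggerer RNA in Cy5 and -0.34, -0.83, -0.17 and -0.99 with staggerer RNA in Cy3. Again all 8 arrays were negative, and litter 4 was the lowest in both orientations. The litter values of -0.51, -0.55, -0.32 and -1.21 gave a mean of -0.65 ± 0.39 (SD, n = 4; 0.638-fold; limma adjusted p = 0.159). Without litter 4 the mean was -0.46. Nr2f1 and Kcnh5 were the 2 of 26 genes with the same sign on every cortex array that held a value, which 1.71% of all features had. Negative values on every array were seen for 0.847% of all features.

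Lmo4 encodes a LIM-only adaptor of transcription complexes that takes part in area patterning. Its cortex ratios were 0.41, 0.06, 0.88 and 1.31 with staggerer RNA in Cy5 and 1.11, 0.87, -0.61 and 1.01 with staggerer RNA in Cy3. The arrays were positive in 7 of 8 cases, and the swapped arrays of litter 3 had opposite signs. The litter values were 0.76, 0.46, 0.14 and 1.16, a mean of 0.63 ± 0.44 (SD, n = 4; 1.55-fold; limma adjusted p = 0.191).

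The 250 bases before the start of these 3 genes, from RefSeq (GRCm38.p6), are shown because they are the genes with the largest cortex ratios. Capitals mark CG dinucleotides, of which there were 22, 16 and 44. Each sequence is read 5′ to 3′ on the minus strand, at chr13:78198874-78199123 for Nr2f1, chr12:75177333-75177582 for Kcnh5 and chr3:144205256-144205505 for Lmo4.
Nr2f1: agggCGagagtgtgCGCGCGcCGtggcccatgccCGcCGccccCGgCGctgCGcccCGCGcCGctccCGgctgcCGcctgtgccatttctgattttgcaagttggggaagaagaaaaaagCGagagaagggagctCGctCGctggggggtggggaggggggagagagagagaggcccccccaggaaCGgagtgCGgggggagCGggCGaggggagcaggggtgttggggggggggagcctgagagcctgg
Kcnh5: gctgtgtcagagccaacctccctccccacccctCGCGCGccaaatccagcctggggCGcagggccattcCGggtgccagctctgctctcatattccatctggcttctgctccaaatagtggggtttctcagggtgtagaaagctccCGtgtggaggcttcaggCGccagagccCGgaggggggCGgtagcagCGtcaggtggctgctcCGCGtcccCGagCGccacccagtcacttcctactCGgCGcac
Lmo4: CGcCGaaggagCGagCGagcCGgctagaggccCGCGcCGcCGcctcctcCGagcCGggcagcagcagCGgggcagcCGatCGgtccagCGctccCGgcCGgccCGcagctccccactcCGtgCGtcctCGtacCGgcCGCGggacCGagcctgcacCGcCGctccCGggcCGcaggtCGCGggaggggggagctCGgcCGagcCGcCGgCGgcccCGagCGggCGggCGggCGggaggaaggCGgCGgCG

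RefSeq promoter windows, which run from 250 bases before the start to 50 after it, were at hand for 24 of the 32 genes with a probe. In the first window listed for each gene, the median GC content of the 24 was 65.2% against 52.7% over 27025 genes, and the median number of CG dinucleotides was 23.5 against 7.0. Nr2f2 and Nfia had 2 and Lmo4 and Nr4a2 had 52. The letters AGGTCA, the core of sites that nuclear receptors such as RORα bind, were searched on both strands. They occurred in 5340 of 32851 windows (16.3%) and in 4900 of the 27025 genes (18.1%). Among the 24 genes, Syt6 alone held them, on the plus strand of chromosome 3, at position -172 counted from its first listed start, as ggcccaAGGTCA with the searched letters in capitals. Of the 3 sequences printed above, none holds them. The longer TAGGTCA, which overlaps AGGTCA, was in 2.61% of the windows and in none of the 24 genes.

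The genes of the upper layers had mostly negative cortex ratios. Of the 8 tested, 6 were negative and 2 positive (50.9% of all features were negative). Their median was -0.253, against -0.0032 for all features. At an unadjusted p under 0.05 (limma), 4 were negative, against 4.02% of all features. These genes were listed with earlier results of these data known, so the shares are a description. By litter, the median of the 8 was -0.201, -0.225, -0.457 and -0.148, so it was negative in each.

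Pou3f2 and Pou3f3 encode POU-domain factors (Brn2 and Brn1) used in making and placing upper-layer neurons. Pou3f2 had cortex litter values of -0.48, -0.19, -0.44 and -0.44, a mean of -0.38 ± 0.13 (SD, n = 4; 0.766-fold; limma adjusted p = 0.290). Its sign was negative on 7 of 8 arrays, but the orientations differed in size, with -0.10 for staggerer RNA in Cy5 and -0.69 for staggerer RNA in Cy3. In litter 2 a further probe entered the average, which had a value in both arrays of that litter only, at 0.038. The probe measured in every litter, taken alone, gave -0.48, -0.41, -0.44 and -0.44, with a mean of -0.44 ± 0.029 (SD, n = 4; limma adjusted p = 0.181 with each probe tested alone). Its litter values lay close together, but its orientation means were -0.07 and -0.81. Pou3f3 had litter values from -0.52 to 0.31, which spanned 0, with a mean of -0.15.

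Cux1 and Cux2 encode homeobox factors of upper-layer neurons that shape dendrites and synapses. Cux2 had litter values of -0.22, -0.34, -0.46 and -0.22 in cortex, a mean of -0.31 ± 0.11 (SD, n = 4; 0.807-fold; limma adjusted p = 0.453). Its probes disagreed in size. The probe listed as Cutl2 had -0.26, -0.56, -0.86 and -0.44 (mean -0.53 ± 0.25, SD, n = 4; limma adjusted p = 0.155 with each probe tested alone), and the other, listed under a clone name, ran from -0.18 to -0.0055 with a mean of -0.089. Cux1 had -0.18, -0.66, -0.10 and -0.19, a mean of -0.28 ± 0.25 (SD, n = 4; 0.822-fold; limma adjusted p = 0.576). Litter 2 was the lowest for Cux1 and without it the mean was -0.16. The litter 2 value of Cux1 came from 1 probe alone and the litter 3 value from the other alone. Litter and probe therefore cannot be told apart there. Both of its probes had negative means, -0.16 and -0.34.

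Kitl encodes the ligand of the receptor Kit. Its cortex litter values were -0.26, -0.035, -0.69 and -0.50, a mean of -0.37 ± 0.28 (SD, n = 4; 0.773-fold; limma adjusted p = 0.433). The arrays with staggerer RNA in Cy5 were all negative, from -0.82 to -0.35, while those with it in Cy3 were positive in litters 1 and 2 (0.30 and 0.28) and negative in litters 3 and 4 (-0.84 and -0.56). Mdga1, a surface protein that binds neuroligins, had a mean of -0.22 with 1 positive litter. The 2 positive genes were Cartpt, the precursor of a neuropeptide, at 0.24 with 3 of 4 litters positive, and Rasgrf2, an activator of Ras, at 0.077 with 2 of 3.

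**Figure D2:**
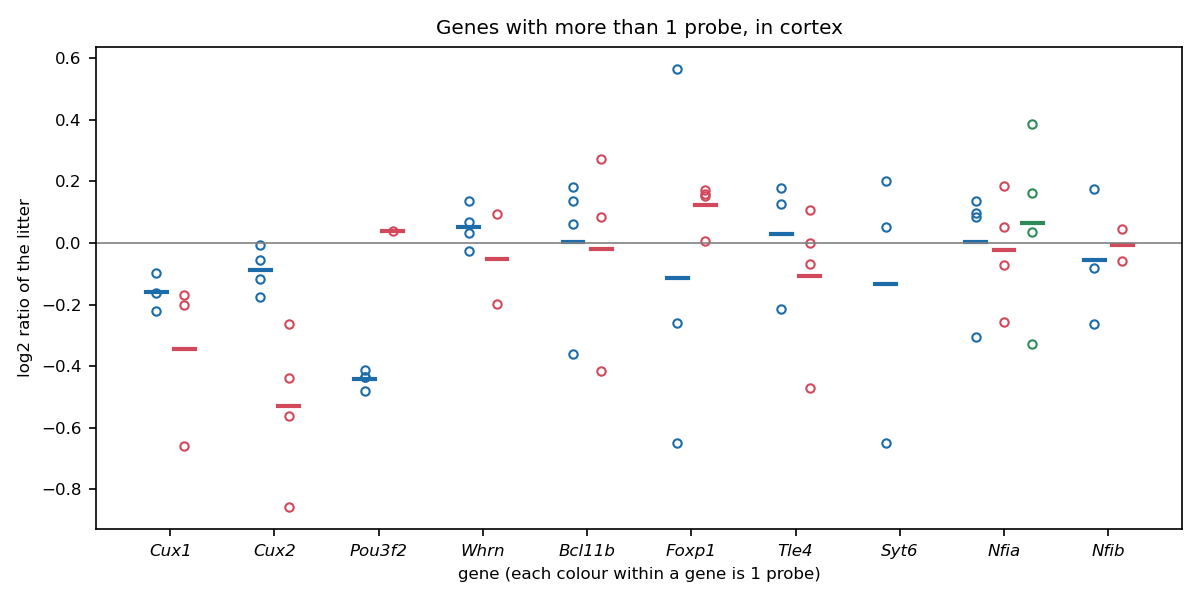
Cortex log2 ratio by probe for the 10 genes with more than 1 probe; the y axis gives the litter value, each circle is 1 litter, each colour within a gene is 1 probe and the bar is its mean. The probes of Cux2 and of Pou3f2 differ in size, and 1 of the Syt6 probes had no litter with both arrays.

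The other genes of layer 4 did not share the ratio of Kcnh5. Whrn, the scaffold protein whirlin, had litter values of 0.069, -0.083, -0.027 and 0.115, a mean of 0.019 ± 0.090 (SD, n = 4; limma 95% interval -0.21 to 0.24). Scnn1a, a subunit of the epithelial sodium channel, had 0.17, -0.30 and 0.39 in litters 1 to 3, a mean of 0.090 (95% interval -0.23 to 0.41). The intervals of both lie above the mean of Kcnh5; the difference between these genes was not tested.

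Among the area genes, Nr2f2, which encodes COUP-TFII, the close relative of Nr2f1, had cortex litter values of -0.37, 0.56 and -0.21 in litters 1, 3 and 4, a mean of -0.0072 ± 0.50 (SD, n = 3; limma adjusted p = 0.997). Its arrays ranged from -1.11 to 0.79, both extremes with staggerer RNA in Cy5, so the litters disagreed widely. Bhlhe22, a bHLH repressor that acts with area identity, had values in both arrays of 2 litters only and was not tested. With staggerer RNA in Cy5 it had -0.54, -0.43, -1.22 and -1.47, and with it in Cy3 it had 0.40 and 0.11 in litters 1 and 2, the opposite sign.

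The tested genes of layer 5 lay close to 0. Of the 5 tested, 4 were positive and 1 negative (50.9% of all features were negative). Their median was 0.038, with a range from -0.106 to 0.253. None had an unadjusted p under 0.05 (limma), against 7.9% of all features. Bcl11b (Ctip2), a zinc finger factor of neurons that project below the cortex, had litter values of -0.39, 0.14, 0.23 and 0.072, which spanned 0, with a mean of 0.012 ± 0.27 (SD, n = 4). Foxp1, a forkhead factor, had -0.32, -0.054, 0.16 and 0.37, a mean of 0.038 ± 0.30 (SD, n = 4), and its probes had means of opposite sign, -0.11 and 0.12. Ldb2, a partner of LIM-domain factors, had positive values in its 3 litters (0.16, 0.12 and 0.48; mean 0.25, limma adjusted p = 0.691). The ETS factors Etv1 and Etv5 had means of 0.093 and -0.106, each over 3 litters of mixed sign.

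The remaining layer 5 genes, Fezf2, Crym and Otx1, had values in too few litters for the test. Fezf2, a zinc finger factor that specifies corticospinal neurons, was negative on the 5 arrays that held a value, from -0.61 to -0.054. Otx1, a homeobox factor, had litter values of -0.80 and -0.44 in litters 1 and 4, and its 5 arrays ran from -1.12 to 0.24. Crym, which encodes a protein that binds thyroid hormone, had 1 complete litter at 0.27, and 4 of its 5 arrays were positive.

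The tested genes of layer 6 and the subplate had small cortex ratios too. Of the 7 tested, 6 were negative and 1 positive (50.9% of all features were negative), all with a size of at most 0.169. None had an unadjusted p under 0.05 (limma), against 7.9% of all features. Tbr1, a T-box factor of neurons that project to the thalamus, had the lowest mean at -0.17 ± 0.23 (SD, n = 3), with 1 positive litter. Syt6, a synaptotagmin, had 0.052, 0.20 and -0.65 in litters 1, 3 and 4. Its low litter 4 came from an array at -1.49 with staggerer RNA in Cy3.

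Tle4, a corepressor, had litter values of -0.15, -0.0005, 0.12 and -0.14 and a mean of -0.043 ± 0.13 (SD, n = 4). These values spanned 0, and its probes had means of opposite sign, 0.031 and -0.11. In litter 1 the probes had 0.18 and -0.47, and litter 2 came from the second probe alone. The nuclear factor I genes Nfia (-0.030, -0.15, 0.020 and 0.22; 3 probes) and Nfib (-0.11, -0.081 and 0.058 in litters 1, 2 and 4) spanned 0 as well. Nr4a2 (Nurr1), a nuclear receptor of the subplate, had a mean of -0.013, and Zfpm2, a cofactor of GATA proteins, of -0.019. Foxp2 and Sox5, factors of deep-layer neurons, had 2 complete litters each and were not tested; Sox5 was positive on its 6 arrays, from 0.071 to 0.80, and Foxp2 spanned 0.

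**Figure D3:**
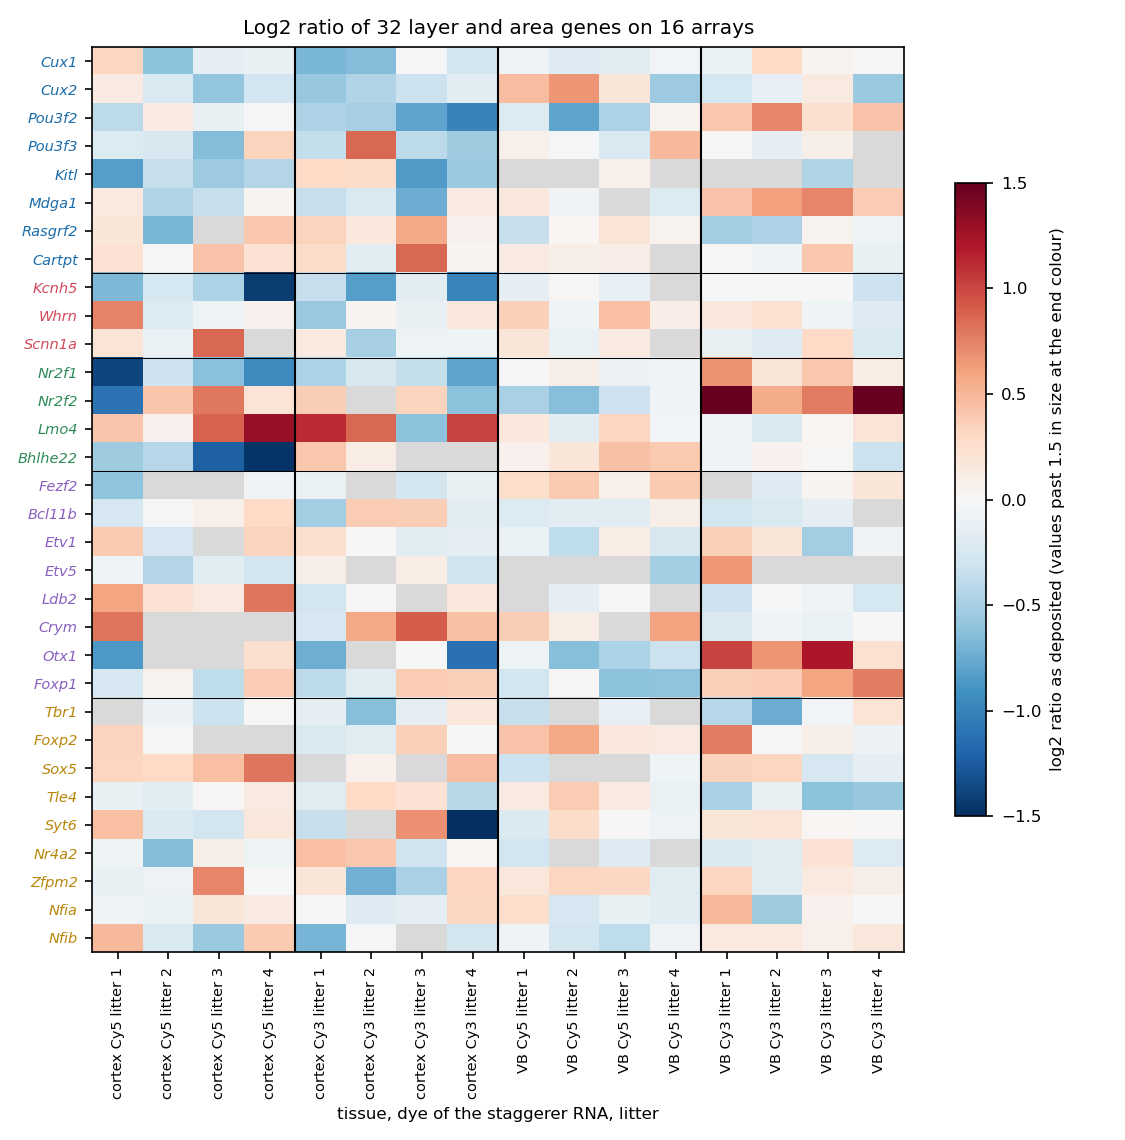
Log2 ratio of the 32 genes (rows, ordered by role) on the 16 arrays (columns, by tissue, dye of the staggerer RNA and litter); red is positive, blue negative and grey no value. The rows of Nr2f1 and Kcnh5 are blue across the cortex arrays, and in VB the rows of Nr2f2, Otx1 and Foxp1 are red with staggerer RNA in Cy3 and mostly blue with it in Cy5.

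Other genes of layers and areas, 42 in a list of non-members, gave 26 tested in cortex. Of these, 9 were positive and 17 negative with a median of -0.070. At an unadjusted p under 0.05 (limma), 1 was positive and 7 negative, against 3.87% and 4.02% of all features. Rora, the mutated gene, was among the 7 negative ones. So were Mef2c (-0.37 ± 0.45, SD, n = 4), Nfix (-0.28 ± 0.18, SD, n = 4) and Ntsr1 (-0.305 ± 0.0525, SD, n = 3). None of the 26 passed the adjusted threshold. Neurod6, a bHLH factor of excitatory neurons, was the positive one at 0.80 ± 0.76 (SD, n = 4; limma adjusted p = 0.261), with litter 4 at 1.92 and the others from 0.20 to 0.55. Calb1, which encodes calbindin, had -0.55 ± 0.39 (SD, n = 4; adjusted p = 0.245), and the cadherin gene Cdh8 had -0.36 ± 0.28 (SD, n = 4; adjusted p = 0.450), both negative in all litters. Neurod1 had -0.68 ± 0.97 (SD, n = 3; adjusted p = 0.536), with litter 4 at -1.79.

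Markers of other cells were measured in the same cortex arrays. Gja1, the astrocyte gene of connexin 43, had a mean of -0.93 ± 0.30 (SD, n = 4, limma adjusted p = 0.0174). Of 7 tested astrocyte markers, Gja1 included, 6 had negative mean ratios, against 50.9% of all features. Gja1 alone was negative in every litter. Gja1 and 1 other were negative at an unadjusted p under 0.05 (limma), as were 4.02% of all features. Of 6 tested markers of GABAergic neurons, 3 were positive and 3 negative, with Sst, the gene of somatostatin, at 0.60 ± 0.32 (SD, n = 4; adjusted p = 0.157) and Gad1, an enzyme that makes GABA, at -0.37 ± 0.25 (SD, n = 4; adjusted p = 0.392). Of these GABAergic markers, 2 were positive and 1 negative at an unadjusted p under 0.05 (limma), against 3.87% and 4.02% of all features. The 4 tested markers of thalamus ran from -0.032 to 0.130 and the 2 of striatum were -0.24 and -0.098. None of these thalamus and striatum markers had an unadjusted p under 0.05. The part of other cell types in the ratios of the layer and area genes was not tested.

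The dye orientations show how far the cortex values depended on the arrays. Of the 26 tested genes, 11 had means of opposite sign in the orientations, against 53.5% of all features. The 7 genes with an unadjusted p under 0.05 had the same sign in both. They were picked by the p of the mean of both orientations, which favours equal signs, so this is no independent check. Nr2f1 had -0.81 with staggerer RNA in Cy5 and -0.46 with it in Cy3, Kcnh5 -0.71 and -0.58, and Lmo4 0.67 and 0.60. Nr2f1 and Kitl (-0.54 and -0.21) were larger in size with staggerer RNA in Cy5. Cux1 (-0.14 and -0.41) and Pou3f2 were larger in size with it in Cy3. Read instead as Cy5 over Cy3, the cortex columns gave -0.18 for Nr2f1, -0.065 for Kcnh5 and 0.035 for Lmo4. No gene of the 26 passed in that reading either, against 1.53% of all features, and 2, Pou3f2 and Ldb2, had an unadjusted p under 0.05, against 12.9% of all features.

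**Figure D4:**
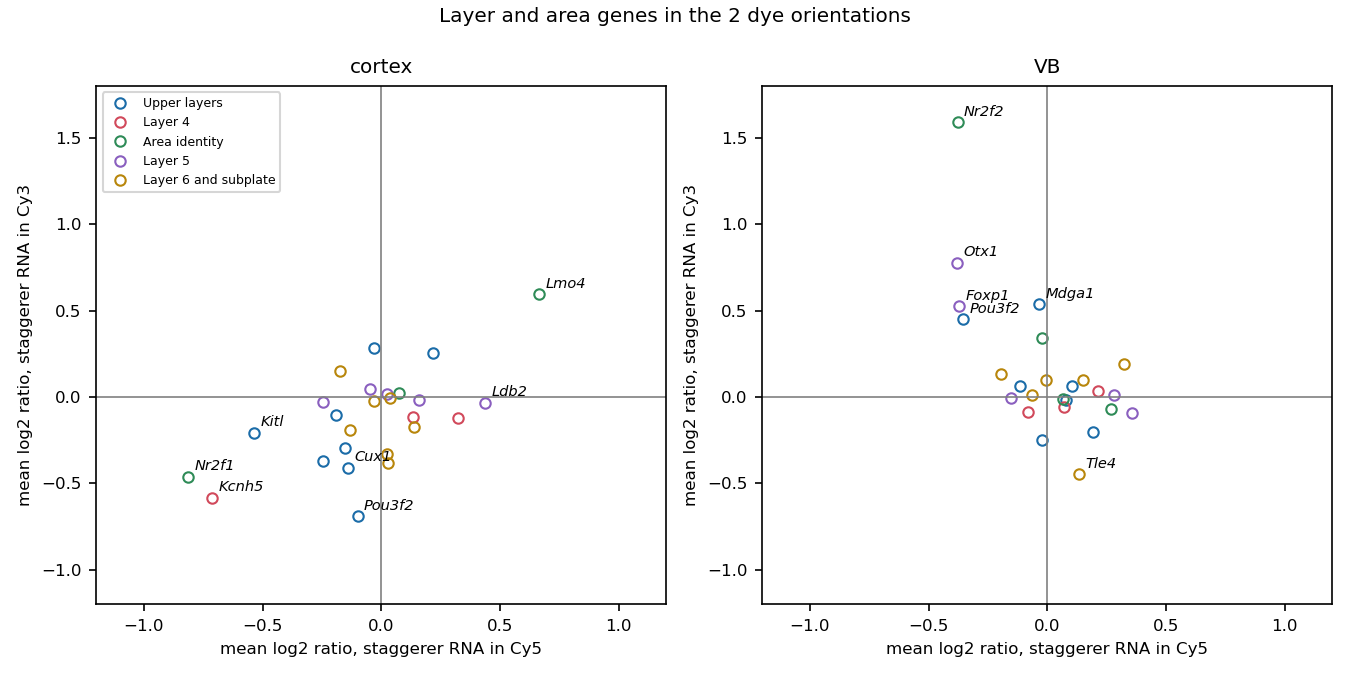
Mean log2 ratio of the tested genes on arrays with staggerer RNA in Cy5 (x axis) and in Cy3 (y axis), for cortex (left) and VB (right); each circle is 1 gene, coloured by role. In cortex Nr2f1, Kcnh5 and Lmo4 lie in the quadrants of equal sign, and in VB Nr2f2, Otx1, Foxp1 and Pou3f2 lie where the signs are opposite.

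In VB, the thalamic nucleus compared here with cortex, 25 of the 32 genes were tested and none passed, against 51 of 16067 features (0.317%). At an unadjusted p under 0.05 there were 4 (limma), against 10.2% of all features, all of them positive (6.1% of features were so): Nr2f2, Foxp2, Mdga1 and Nr2f1. Over the 25 genes, 16 mean ratios were positive and 9 negative (47.5% of all features were negative), with a median of 0.048. The ratio was positive in every litter with a value for 7 genes, against 13.1% of features, and none of the 25 had the same sign on every VB array, which 1.23% of features had. Of the untested genes, Ldb2 was negative on the 6 VB arrays that held a value. Kitl, Bcl11b, Etv5, Ldb2, Tbr1, Sox5 and Nr4a2 had values in too few litters.

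Nr2f2 had VB litter values of 1.19, -0.041, 0.23 and 1.05, a mean of 0.61 ± 0.60 (SD, n = 4; limma adjusted p = 0.237). Its arrays with staggerer RNA in Cy5 were -0.49, -0.64, -0.32 and -0.069, and those with it in Cy3 were 2.86, 0.55, 0.79 and 2.17. All arrays of one orientation were negative and all of the other positive. Read as Cy5 over Cy3 its VB ratio was -0.98 ± 0.53 (SD, n = 4; limma adjusted p = 0.001). In that reading Otx1 (-0.58, adjusted p = 0.00106), Foxp1 (-0.47, adjusted p = 0.00293) and Pou3f2 (-0.38, adjusted p = 0.0185) passed as well, which makes 4 of 25 genes against 17.3% of all features. At an unadjusted p under 0.05 there were 11 genes in that reading, against 32.5%. Beside these 4, Nr2f1 and Mdga1, they were Cux2 (0.19 in that reading and -0.076 as deposited), Bhlhe22 (0.17 and 0.098), Crym (0.22 and 0.135), Tle4 (0.21 and -0.074) and Nfib (-0.16 and -0.029). In the reading as deposited Otx1 had 0.20, Foxp1 0.097 and Pou3f2 0.071 in VB, so the sign of each gene mean depended on the reading. As deposited, the VB probes of Pou3f2 had means of -0.19 and 0.33 and those of Foxp1 -0.049 and 0.35. These gene means therefore averaged probes of opposite sign. Of the 25 genes, 17 had opposite signs in the orientations, against 67.8% of all VB features.

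The other VB genes with an unadjusted p under 0.05 were smaller. Foxp2 had litter values of 0.60, 0.28, 0.12 and 0.027, all positive, with a mean of 0.26 ± 0.25 (SD, n = 4; limma adjusted p = 0.382). Mdga1 had 0.29, 0.29 and 0.085 in litters 1, 2 and 4, a mean of 0.22 ± 0.12 (SD, n = 3; adjusted p = 0.408). Nr2f1 had 0.32, 0.13, 0.16 and 0.027, a mean of 0.16 ± 0.12 (SD, n = 4; adjusted p = 0.480). All 4 litters of Nr2f1 were positive in VB, but its arrays with staggerer RNA in Cy5 lay from -0.087 to 0.089 and those with it in Cy3 from 0.11 to 0.67. Read as Cy5 over Cy3, the VB means were 0.068 for Foxp2 (limma adjusted p = 0.599), -0.25 for Mdga1 (adjusted p = 0.0556) and -0.18 for Nr2f1 (adjusted p = 0.108). The sign of Mdga1 and of Nr2f1 in VB therefore depended on the reading. Of the 4 area genes, all had a positive mean in VB with the columns as deposited, from 0.026 for Lmo4 to that of Nr2f2.

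The difference between tissues was tested for the 20 genes measured in both. None passed the adjusted threshold, against 12 of 12180 features (0.0985%), and 5 had an unadjusted p under 0.05 (limma), against 9.04% of features. Nr2f1 had the lowest p: cortex minus VB was -0.80 (95% interval -1.12 to -0.48; limma unadjusted p = 0.000113, adjusted p = 0.0813), with every cortex litter negative and every VB litter positive as deposited. Read as Cy5 over Cy3, Nr2f1 had -0.18 in cortex and -0.18 in VB, so its difference and its opposite signs depended on the reading. Lmo4 had a difference of 0.61 (95% interval 0.21 to 1.00; adjusted p = 0.341), Kcnh5 of -0.60 (-0.9998 to -0.20; adjusted p = 0.344), Pou3f2 of -0.46 (-0.73 to -0.18; adjusted p = 0.329) and Mdga1 of -0.44 (-0.78 to -0.10; adjusted p = 0.406). In VB, Kcnh5 (-0.047, 95% interval -0.22 to 0.13) and Lmo4 (0.026, -0.14 to 0.19) lay close to 0. In the other reading Kcnh5 had -0.065 in cortex and -0.036 in VB, and Lmo4 0.035 and 0.040, so their tissue differences depended on it too. That reading gave 0.32 in cortex and -0.38 in VB for Pou3f2, and 0.071 and -0.25 for Mdga1. The signs of their differences therefore depended on it. The Pou3f2 means also averaged unlike probes. The probe measured in every litter had -0.44 in cortex and -0.19 in VB. The other had 0.038 in cortex litter 2 alone and 0.33 over 3 VB litters. With litter as a replicate block, Mdga1 had an unadjusted p of 0.0646 (limma; 0.0147 without the block) and Nr2f2 of 0.0135 (0.0558 without). Cux1 and Cux2 had differences of -0.25 and -0.23 with intervals that held 0.

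**Figure D5:**
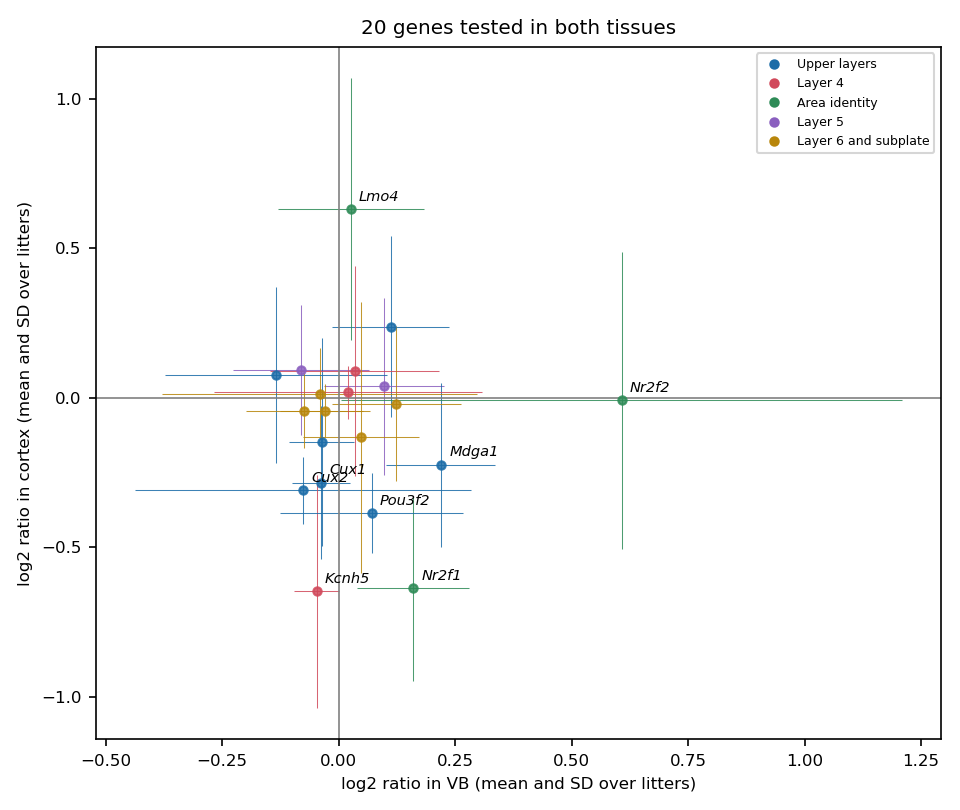
Mean log2 ratio of the 20 genes tested in both tissues, VB on the x axis and cortex on the y axis, with bars of 1 SD over litters and colours by role. Nr2f1 and Kcnh5 lie low and Lmo4 high on the cortex axis with VB means near 0 to 0.16, while Nr2f2 lies at 0.61 in VB and near 0 in cortex.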

How the data were processed

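Normalized log2 ratios of 24107 probes on 16 arrays were used as the authors deposited them; how they were scanned, background-corrected, normalized and filtered, and their log base, is not given in the sources used here. Platform symbols were updated through accessions (15685 probes), symbols (2963) or synonyms (1696), 25 were kept, and 3738 probes had no symbol. Litter values needed both swapped arrays of a probe, probes of a gene were averaged, and features with at least 3 of 4 litters were tested. Means over single arrays of an orientation also hold probes without a swapped partner. The members and lists were chosen with earlier results of these data known; by rule, litter values are given for genes with an unadjusted p under 0.05, the same sign throughout, or more than 1 probe, and at most 8 non-members are named. Values of Scnn1a, Ldb2, Otx1, Crym and Bhlhe22 by litter or array were added after they were seen. The non-members Mef2c, Nfix and Ntsr1 were named beyond the limit of 8.

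Fits were made per tissue by limma 3.58.1 under R 4.3.3 (two-sided eBayes statistic against 0, Benjamini-Hochberg over all features, threshold 0.05), and cortex minus VB over the 8 litter values without a litter block. Python 3.11.15, pandas 2.3.3 and matplotlib 3.10.9 prepared tables and plots, and the fits were tested on simulated data. Whether columns run 1 way was examined by correlating the deviations of swapped arrays from their orientation mean: mean rho was 0.0575 in cortex (4 of 4 litters positive) and 0.0216 in VB (2 of 4). Among sex, blood and choroid plexus genes, swapped arrays deviated the same way in 17 of 29 cortex cases and 12 of 32 VB cases. The direction is therefore weakly settled in cortex and unsettled in VB. Litter numbers are shared by the tissues in the labels; same-numbered deviations correlated at -0.016 to 0.030. The number of litters, at most 4 for a gene in each tissue, limits the precision.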

Additional observations from a re-analysis of the deposited data

Results flagged for a closer look

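Nr2f1 had a negative ratio in all 4 cortex litters and a positive one in all 4 VB litters with the columns as deposited. The difference, cortex minus VB, was -0.797 and did not pass (limma adjusted p = 0.0813). Read as Cy5 over Cy3, Nr2f1 had -0.18 in both tissues, so the contrast of signs rests on the reading of the columns. Labelling method and tissue cannot be told apart here.

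Single litters stood apart from the others of their gene in 2 of 35 sets of 4 litters; chance alone marks about 1 in 20 such sets. Pou3f2 had -0.187 in cortex litter 2, against -0.48 to -0.44 in the other litters, and the probe measured in every litter gave -0.41 there. Cux1 had 0.0565 in VB litter 2, against -0.078 to -0.063 in the others.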

How the results depend on the processing

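No gene of the list passed in cortex, in VB or in the tissue difference, and most alternatives left that at 0. With staggerer RNA in Cy5 alone, 95 of 19131 cortex features passed and 1 of 28 genes, Bhlhe22 (-0.91, limma adjusted p = 0.0404). Its litters 3 and 4 had no value on the swapped array. In litters 1 and 2 the swapped arrays had the opposite sign (0.40 and 0.11). In a single fit of both tissues 1 of 26 genes passed in cortex (Nr2f1, limma adjusted p = 0.0245), against 40 of 16522 features. The limma adjusted p of Nr2f1 ran from 0.0245 to 0.370 over its alternatives with the columns as deposited. Read as Cy5 over Cy3 it was 0.553. In VB 4 of 25 genes passed read as Cy5 over Cy3, against 17.3% of all features. Their signs were opposite to the reading as deposited: Nr2f2 -0.98, Otx1 -0.58, Foxp1 -0.47 and Pou3f2 -0.38. With staggerer RNA in Cy3 alone 6 of 30 genes passed in VB (Tle4, Foxp1, Pou3f2, Otx1, Nr2f2 and Mdga1), against 1678 of 20925 features. Read as Cy5 over Cy3, 1 of 20 genes passed in the tissue difference (Pou3f2, 0.70, limma adjusted p = 0.0151), against 450 of 12180 features. With all columns as deposited, 13 of 26 genes kept their sign in cortex under every alternative run, and 7 of 25 in VB.

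Over all features, the cortex count of 10 was 18 with at least 2 litters, 252 read as Cy5 over Cy3, 95 and 152 with staggerer RNA in Cy5 or Cy3 alone, 2 with single arrays counted, 40 in a single fit of both tissues and 16 with each probe tested alone. Leaving out a litter gave 0 (713 at an unadjusted p under 0.05 without litter 1 and 794 without litter 2), 5 and 98. The VB count of 51 was 19 after quantile normalization, 2786 read as Cy5 over Cy3, 1170 and 1678 with staggerer RNA in Cy5 or Cy3 alone, 7 with single arrays counted and 19 in a single fit; leaving out a litter gave 11 to 95. The tissue difference count of 12 was 5 with values in all 4 litters and 450 read as Cy5 over Cy3, and 0 to 1 without a litter. Litter as a replicate block gave 0 genes of the list (5 at an unadjusted p under 0.05, with Nr2f2 in place of Mdga1; Nr2f1 adjusted p = 0.0808) and 17 features. The cause of these changes was not tested. Signal over background is unknown, so no filter on dim probes was made.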
